A study of Mus musculus with 68 samples.

Results

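Single dopamine neurons were chosen by how much of their library was Malat1, a long noncoding RNA that is retained in the nucleus. For each library, the Malat1 count was taken as a percentage of the summed counts of all genes, and the classes were selected on this value. Of 68 libraries, 44 had 1% or more (high Malat1) and 7 had less than 0.2% (low Malat1), so that 51 libraries were compared and 17 lay between the thresholds. Because Malat1 itself chose the classes, and because every other gene was counted in the same cells, all differences between the classes are descriptions without a test.

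The libraries were made by Patch-seq, in which RNA is drawn into the recording pipette after a patch-clamp recording. They came from dopaminergic neurons of the ventral tegmental area (VTA) of 12-month-old mice, 33 cells from 3xTg and 35 from WT. 3xTg mice are homozygous for human transgenes, APP Swe and tau P301L among them, and model amyloid and tau pathology, and the WT mice came from a line kept in parallel on that hybrid background without the transgenes, so they were not littermates. Male and female mice were pooled, the labels give no animal for a cell, and each genotype was therefore 1 sample. The cell content was sucked out gently after the recording and the nucleus was meant to come with it. Polyadenylated RNA was captured on oligo-dT beads and PCR of 28 cycles followed.

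Malat1 is transcribed in nearly all mammalian cells, stays in nuclear speckles and is among the most abundant nuclear transcripts. A neuronal library can hold RNA of the nucleus, of the cell body and of the processes, and most messenger RNAs of ribosomal and mitochondrial proteins lie in the cytoplasm. The mature Malat1 end is made by RNase P and carries no poly(A) tail. It ends in a genomically encoded A-rich tract, which folds with a pair of U-rich motifs into a triple helix that protects the RNA from decay. Malat1 lies on the minus strand of chromosome 19 of mm10, from 5795690 to 5802671 in the deposited table. The stretch below is that end (GRCm38, chr19:5795982-5796071, minus strand, bases 6602 to 6691 of the 6983-base GENCODE transcript), and it is shown because oligo-dT beads could bind encoded A runs of this kind. Capitals mark both U-rich motifs and the A-rich tract, and U is written as T.
Malat1 3′ end: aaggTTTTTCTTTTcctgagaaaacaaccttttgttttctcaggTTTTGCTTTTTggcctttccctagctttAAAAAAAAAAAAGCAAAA
A tract of 12 A followed by GCAAAA was found in 23 of 141767 GENCODE transcripts (0.0162%).

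Malat1 also holds a short interspersed repeat of the B1 family, of which the mouse genome carries very many copies. The stretch below (GRCm38, chr19:5802000-5802083, minus strand, bases 590 to 673 of the transcript) is shown because many other genes hold copies of its words. Capitals mark bases that lie in 25-base words shared with Tmod1, which here is every base.
Malat1 B1 stretch: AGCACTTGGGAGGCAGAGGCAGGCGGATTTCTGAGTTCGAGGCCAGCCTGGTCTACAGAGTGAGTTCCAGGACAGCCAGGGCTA
Of 4005 expressed genes that could be matched to GENCODE transcripts, 868 (21.7%) shared at least 1 such word with Malat1 on either strand. All 868 had at least 1 shared word between bases 530 and 758 of Malat1. The authors aligned reads at 90% identity or more, and counts of such genes may include reads of another copy of the repeat, Malat1 included.

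In high-Malat1 libraries, Malat1 ran from 1.01% to 8.12% of counts with a median of 2.19%. In the 7 low-Malat1 libraries it was 0.00173% in WT cell 20, 0.00197% in 3xTg cell 36, 0.0838% in cell 49, 0.138% in cell 48, 0.156% in cell 26, 0.169% in cell 38 and 0.191% in cell 81, the last 5 all 3xTg. The lower threshold fell in a gap, since the nearest libraries above it had 0.276% and 0.302%. The upper threshold did not, since the nearest libraries lay at 0.891% and 0.892% below it and at 1.01% and 1.02% above it.

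**Figure D1:**
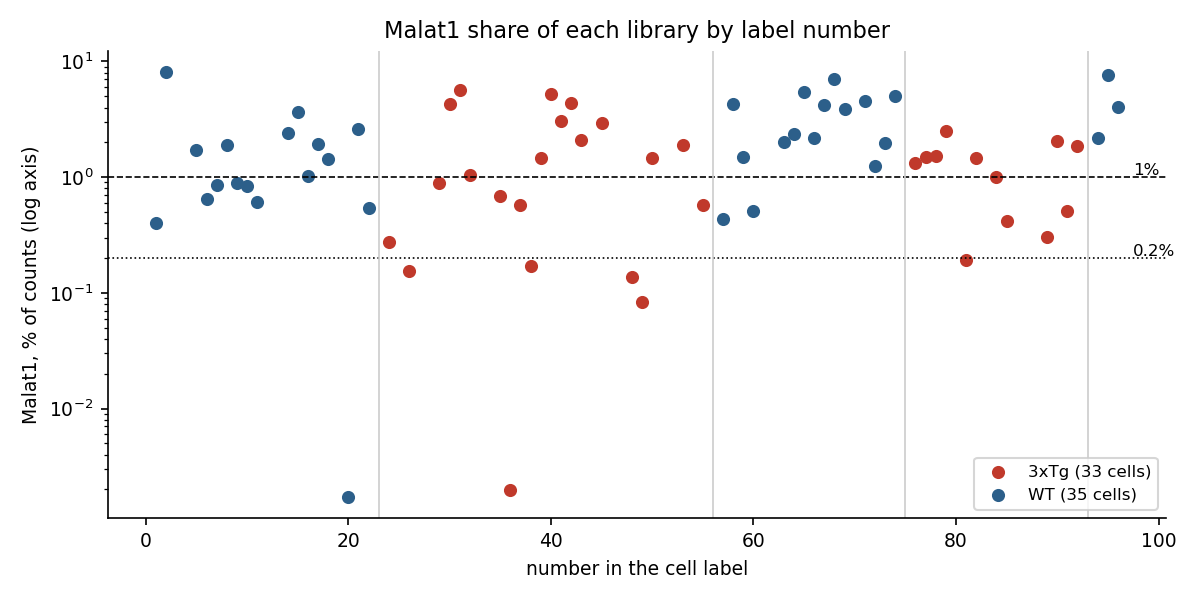
Malat1 as a percentage of the counts of each library (log axis) against the number in the cell label, with 3xTg in red and WT in blue. The dashed and dotted lines mark 1% and 0.2%, the grey lines separate runs of label numbers, and 5 of the 7 low-Malat1 libraries lie in the run 3xTg 24 to 55.

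More WT than 3xTg libraries were in the high class, and all but 1 of the low-Malat1 libraries were 3xTg. High Malat1 was found in 19 of 33 3xTg cells (57.6%, exact Clopper-Pearson 95% interval 39.2% to 74.5%) and in 25 of 35 WT cells (71.4%, 53.7% to 85.4%). Low Malat1 was found in 6 of 33 3xTg cells (18.2%, 6.98% to 35.5%) and in 1 of 35 WT cells (2.86%, 0.0723% to 14.9%). These intervals treat cells as independent and cover counting error alone, and they do not compare the genotypes, each of which was 1 sample. The median Malat1 share was 1.32% in 3xTg and 1.97% in WT.

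The numbers in the cell labels form runs of 1 genotype, and what they mark is not stated. Among WT cells, the high class held 9 of 17 cells numbered 1 to 22 and 13 of 15 numbered 57 to 74, with median Malat1 shares of 1.02% and 2.34%. All 3 WT cells numbered 94 to 96 were high, with a median of 4.07%. In 3xTg, 11 of 21 cells numbered 24 to 55 and 8 of 12 numbered 76 to 92 were high, with medians of 1.04% and 1.39%. The shares of high cells thus differed by −0.56 percentage points between genotypes in the first runs (3xTg 24 to 55 minus WT 1 to 22) and by −20.0 points in the second (3xTg 76 to 92 minus WT 57 to 74). With all runs together it was −13.9 points, and with all cells split at 0.5% or at the median it was −18.7 or −26.5 points. In the header of the deposited table, the sequencing numbers of all 68 cells equal the label numbers read across a grid of 8 rows and 12 columns in the other direction, and whether these are plate positions is not stated.

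All 68 libraries had counts of the dopamine neuron markers Th, Slc6a3 and Slc18a2, and totals ran from 492505 to 1678624 counts per library. High-Malat1 libraries had lower totals and more genes. Their totals ran from 492505 to 1678624 counts with a median of 928066, and those of low-Malat1 libraries from 910314 to 1416153 with a median of 1235885. Genes with at least 1 count ran from 4273 to 10426 (median 8494.5) in high and from 4101 to 9312 (median 6349) in low libraries. The classes overlapped in both measures. With every library thinned to 700448 counts, which left out 6 high libraries and 1 between the thresholds for their lower totals, the medians were 8586 and 6071 genes. Genes with 10 or more counts had medians of 6169 and 4738.

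**Figure D2:**
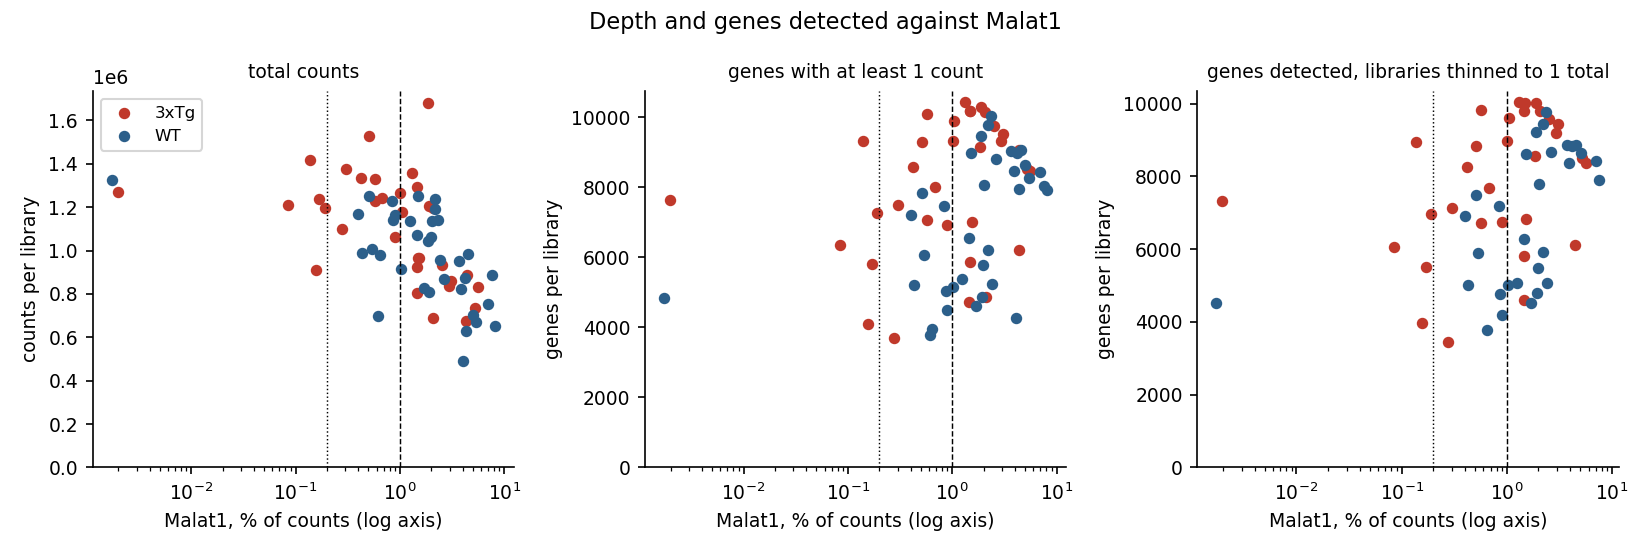
Total counts (left), genes with at least 1 count (middle) and the same after thinning (right) of each library against Malat1 as a percentage of counts (log axis), 3xTg in red and WT in blue. Totals are lower at high Malat1 and both gene numbers spread widely, from 4273 to 10426 before thinning in the libraries above the dashed line at 1%.

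Across the 68 libraries, Spearman's rho with the Malat1 share was −0.67 for the total and 0.31 for the number of genes detected. Within the 44 high-Malat1 libraries it was −0.63 and −0.06. Malat1 is part of the total, and all measures of a library share its depth and its amplification, so these correlations are given as descriptions.

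For genes, counts were divided by size factors (the median of ratios), and the difference was the mean over high-Malat1 cells of log2(normalized count + 1) minus that over low-Malat1 cells. Size factors relative to the library totals had medians of 1.33 in high and 0.629 in low libraries. The median expressed gene differed by −0.52 on this scale, and all differences below are relative to it. The second measure was the log2 ratio of counts summed over each class in CPM (counts scaled to a total of 1e+06), whose median over expressed genes was 0.16. A gene was called past 2-fold when both values were at least 1 in size in the same direction. Of 4223 expressed genes, with a normalized count of 1 or more in 80% of the cells of a class, 1280 were higher in high-Malat1 libraries (30.3%) and 249 were lower (5.9%). Of the 1280, 650 passed the filter on expression in the high class alone, and of the 249, 189 passed in the low class alone, so that the filter itself favoured these directions. In all, 1031 genes passed in the high class alone and 688 in the low class alone. With no word shared with Malat1, 806 of 3137 genes were higher (25.7%), against 387 of 868 (44.6%) of those that shared one.

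Nuclear long noncoding RNAs were higher in high-Malat1 libraries. Of the 21 on a list without Malat1, 18 were in the table and 8 were expressed. Of these 8, 6 were past 2-fold higher, 1 was lower and 1 was neither, where 30.3% of all expressed genes were higher. Of the 8, 2 passed the filter on expression in the high class alone and 1 in the low class alone, which favours a difference in that direction. Their median difference was 2.35, and that of the log2 ratios of summed counts was 3.08. It was 1.41 with a pseudocount of 10, and 0.99 when all genes with a count were used. Summed, the list held 0.325% to 8.56% of the non-Malat1 counts in high libraries (median 2.29%), 0.372% at the median in those between, and 0.111% to 0.262% (median 0.168%) in low libraries. All 44 high libraries lay above the highest low one.

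Meg3, an imprinted nuclear RNA of the Dlk1-Dio3 locus, ran from 1375 to 24558 CPM in high libraries (median 7472) and from 174 to 816 CPM in low libraries (median 477). The classes did not overlap, which held for 26 of the 4223 expressed genes (0.616%), Malat1 included, while for 0 genes (0%) every high library lay below every low one. The difference of Meg3 was 3.63 and its summed counts were 17.8-fold higher, and its transcripts share no 25-base word with Malat1. Kcnq1ot1, which silences neighbouring genes of the imprinted Kcnq1 cluster on the same chromosome, did not overlap either, with 813 to 20719 CPM (median 3907) against 259 to 496 CPM (median 329). It shared 2 words with Malat1.

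Snhg11, a neuronal RNA that hosts small nucleolar RNAs and is typed as protein-coding in the deposited table, had a difference of 5.32. It ran from 392.2 to 42558 CPM (median 9710) in high and from 39.9 to 1020.40 CPM (median 72.5) in low libraries, and 42 of 44 high libraries lay above the highest low one. It shared 37 words with Malat1. Xist, the RNA that coats the inactive X chromosome, had a median of 14.8 CPM (0 to 312) in high and 1.58 CPM (0 to 3.24) in low libraries. Mice of both sexes were pooled, and how the sexes fall on the classes is not given.

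Airn and Sox2ot were also past 2-fold higher. Airn, the antisense RNA that silences the imprinted Igf2r, had a difference of 1.65, and Sox2ot, which overlaps the gene of the transcription factor Sox2, one of 1.47. Both overlap protein-coding genes, and reads of the partners may be counted with them. Sox2ot also shared 16 words with Malat1. Rian, another imprinted RNA of the Dlk1-Dio3 locus, shared 10 words, did not differ past 2-fold and lay at −0.23, with 0 to 889 CPM (median 215) in high and 0 to 522 CPM (median 309) in low libraries. Peg13, an imprinted RNA inside Trappc9, was lower, at −2.85, with medians of 17.5 CPM in high and 244 CPM in low libraries.

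Of the members not expressed by the filter, Miat, a speckle-associated neuronal RNA, had 3620 counts over 34 of 44 high libraries and 0 in the 7 low ones. With a floor of 3 counts over the low class it was at least 244-fold higher in CPM. Mirg had 2079 counts against 24. Neat1, the scaffold of paraspeckles, had 121 counts in 3 high libraries and 0 in low ones.

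**Figure D3:**
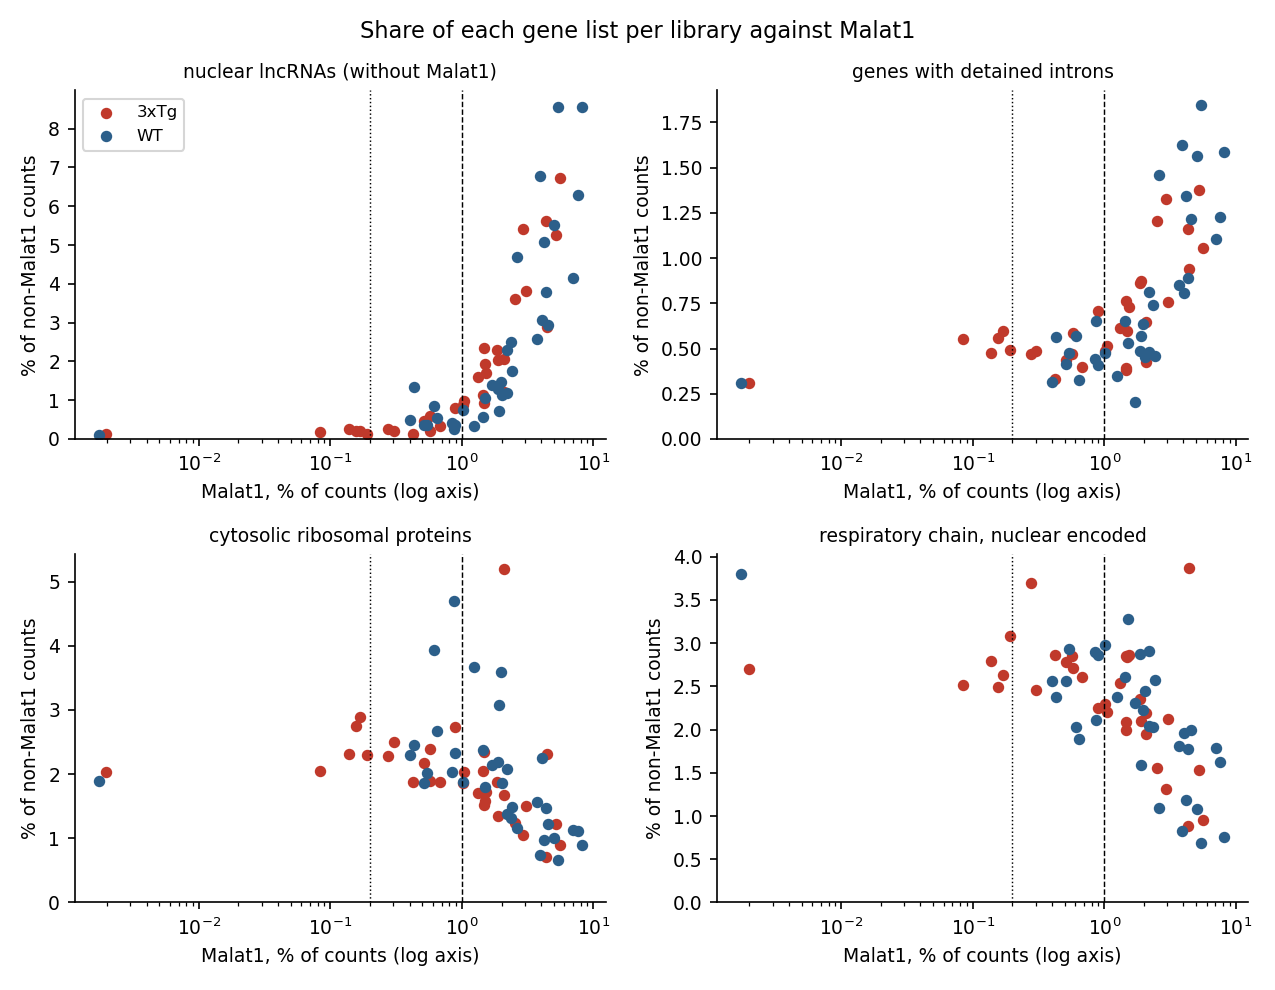
Summed share of 4 gene lists, as a percentage of the non-Malat1 counts of each library, against Malat1 as a percentage of counts (log axis), 3xTg in red and WT in blue. Nuclear lncRNAs are low at every library below the dotted line at 0.2% and reach 8.56% at the right, while ribosomal protein and respiratory chain genes are lowest at the right.

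Genes whose messages keep introns in the nucleus differed among themselves. Such detained introns are known in genes of splicing factors and their kinases. Of 35 listed genes, 34 were in the table and 24 were expressed, of which 11 were past 2-fold higher, 0 were lower and 13 were neither, where 30.3% of all expressed genes were higher and 5.9% lower. Of the 24, 9 passed the filter in the high class alone, which favours higher values there, so the count is no measure of an excess. The median difference was 1.14 and the median log2 ratio of summed counts 0.76, and over the 15 members that passed in both classes the median difference was 0.33. The table counts exons of RefSeq transcripts, so whether introns were retained was not measured.

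Srsf2, a serine and arginine-rich splicing factor of nuclear speckles, had a difference of 4.72, with 0 to 1159 CPM (median 152) in high libraries and counts in 2 of 7 low ones, up to 81.2 CPM. Rbm5, a splicing regulator, had 4.86, with counts in 39 of 44 high and 2 of 7 low libraries. Clk1, the kinase that phosphorylates these splicing factors, ran from 0 to 2039 CPM (median 209) in high and from 0 to 166 CPM (median 35.2) in low libraries, a difference of 2.07.

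Ogt, the enzyme that attaches O-GlcNAc to proteins, had a difference of 3.90 and medians of 330 and 5.52 CPM. Luc7l2, a component of the U1 small nuclear ribonucleoprotein, was counted in all 51 libraries, with 64.2 to 599 CPM (median 262) in high and 8.91 to 93.7 CPM (median 48.9) in low ones, and 37 of 44 high libraries lay above every low one. Luc7l3, Srsf7, Rbm39, Srrm2, Nktr and Sfrs18 were the other members past 2-fold, with differences of 2.99, 1.79, 1.2, 1.18, 1.71 and 3.00. Of the 11 members past 2-fold, Luc7l2 shared 8 words with Malat1, Rbm39 5 and Rbm5 2. Srsf3, at −2.06, Ddx5, at −1.21, and Mat2a, at −1.07, lay below the median gene without passing 2-fold by the summed counts.

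Messages of the cytosolic ribosome lay below the median gene. Of 80 listed ribosomal protein genes, 79 were in the table and 77 were expressed, of which 0 were past 2-fold higher, 2 were lower and 75 were neither, fewer lower genes than the 5.9% of all expressed genes. The median difference was −1.36 and the median log2 ratio of summed counts −0.41, and 74 of 77 lay below the median gene. Without 3xTg cell 26, a low-Malat1 library with 4101 genes, the median difference was −0.80, and with a minimum of 10 normalized counts it was −0.43. The list held 0.663% to 5.20% of the non-Malat1 counts in high libraries (median 1.57%) and 1.89% to 2.88% in low ones (median 2.31%). The classes overlapped, although 31 of 44 high libraries lay below the lowest low one and 4 above the highest. Rpl14 and Rpl7a, both of the large subunit, were past 2-fold lower, with differences of −2.74 and −1.96. Many ribosomal protein genes have processed pseudogenes of near-identical sequence, so their counts are uncertain.

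The nuclear-encoded respiratory chain gave nearly the same picture. All 76 listed genes were in the table and 75 were expressed, with 0 past 2-fold higher, 2 lower and 73 neither, again fewer lower genes than the 5.9% of all. The median difference was −1.39, against a median log2 ratio of summed counts of −0.48, and 72 of 75 lay below the median gene. The share of the non-Malat1 counts was 0.684% to 3.87% in high (median 2.07%) and 2.49% to 3.803% in low libraries (median 2.70%), and 33 of 44 high libraries lay below the lowest low one. Atp5g2, a subunit of ATP synthase, and Ndufa8, a subunit of complex I, were past 2-fold lower, at −2.92 and −2.34. No gene of the mitochondrial chromosome was in the table as used here, so transcripts made inside mitochondria were not analysed.

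Messages known from dendrites and axons had a median difference of −1.10, with −0.42 as the median log2 ratio of summed counts, over 17 expressed of 26 listed genes. Of these, 0 were past 2-fold in either direction, where 30.3% of all expressed genes were higher and 5.9% lower. The calmodulin gene Calm2 had medians of 1679 CPM in high and 2794 CPM in low libraries, and Stmn1, which regulates microtubules, of 1654 and 2492 CPM. Secretory granule genes had medians of −1.19 and −0.50 on the same scales over 8 expressed of 14. Of these 8, 1 was lower, where 5.9% of all expressed genes were: Pcsk1n, which encodes an inhibitor of a prohormone convertase. Immediate early genes had a median of −1.70 over 5 expressed of 14, with Fosb and Jun past 2-fold lower, where 5.9% of all expressed genes were lower. Of the 5, 3 passed the filter in the low class alone, which favours lower values in the high class, and over all members with a count the median log2 ratio of summed counts was −0.33. For Fosb the sums were 2486 counts over 44 and 2144 over 7 libraries, and 1 low library reached 854 CPM where the low median was 29.7 CPM. Of 14 further genes that host small nucleolar RNAs or make cytoplasmic noncoding RNAs, a list without Snhg11, 2 were expressed and neither was past 2-fold, 2900097C17Rik at −1.22 and Gas5 at 1.15. Of 11 structured noncoding RNAs, Rn45s alone was expressed, at 0.40.

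Dopaminergic identity genes were present in both classes and lay below the median gene. Of 21 listed genes, 11 were expressed, all 11 of them below it, at a median of −1.04 and, by the log2 ratio of summed counts, of −0.31. Of the 11, 0 were past 2-fold in either direction, where 30.3% of all expressed genes were higher and 5.9% lower. Th, which makes the dopamine precursor, ran from 949 to 12873 CPM (median 6657) in high and from 7118 to 16862 CPM (median 9950) in low libraries. Slc6a3, the dopamine transporter, had medians of 4189 and 4703 CPM and overlapping ranges. The list held 0.681% to 3.45% of the non-Malat1 counts in high (median 2.05%) and 2.32% to 4.27% in low libraries (median 2.62%), and 28 of 44 high libraries lay below the lowest low one. Of the remaining members, Kcnj6, a potassium channel subunit, had 1693 counts in 26 high libraries and 4 counts in 1 low library.

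**Figure D4:**
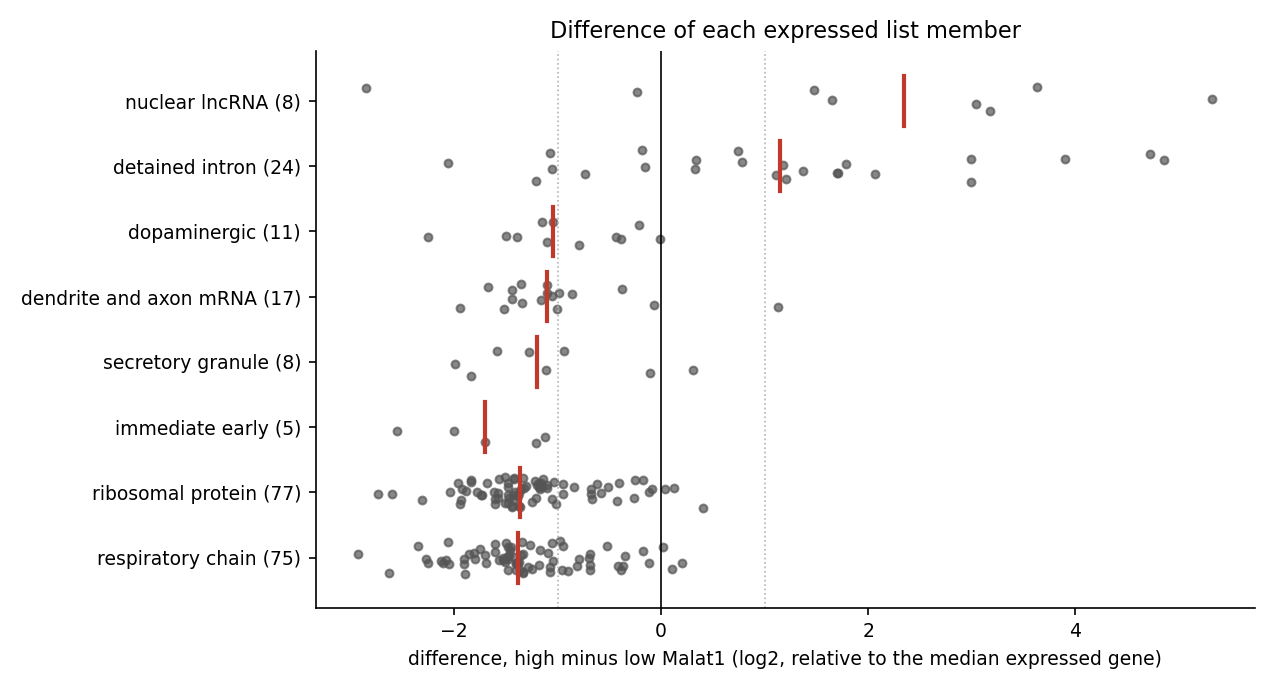
Difference of each expressed member of 8 gene lists, high minus low Malat1, on the log2 scale relative to the median expressed gene (line at 0). Each point is 1 gene, red bars are medians, dotted lines mark −1 and 1, and the number of expressed genes follows each name; medians run from 2.35 for nuclear lncRNAs to −1.70 for immediate early genes.

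Markers of other cell types held small shares in most libraries, with higher medians in the high class except for endothelial markers, whose median was 0 in both. The medians were 0.0163% in high and 0.00207% in low libraries for microglial, 0.00414% and 0.000513% for GABA neuron, and 0.00145% and 0.000122% for glutamate neuron markers, and rho of the GABA neuron share with the Malat1 share was 0.72 over the 68 libraries, which share depth and preparation. Some libraries had far larger shares. In 3xTg cell 43 (high) microglial markers held 1.34% of the non-Malat1 counts, more than the 0.981% of the dopaminergic list, and in WT cell 73 (high) microglial markers held 0.402% and astrocyte markers 0.192%. Astrocyte markers, 7 of 8 with a count in any library, held 0% to 0.246% of the non-Malat1 counts in high and 7.53e-05% to 0.0276% in low libraries, and Aqp4, Gjb6, Gfap, Agt and Aldh1l1 were at 0 in all low libraries. The 10 microglial markers held 0.000360% to 1.34% and 0% to 0.111%, with Tmem119 and Csf1r at 0 in all low libraries, and both expressed members, Cx3cr1 among them, were past 2-fold higher and had passed the filter in the high class alone. All 8 oligodendrocyte markers had a count in some library, with 0.000858% to 0.165% and 0.000567% to 0.00830%, and Mbp was past 2-fold higher while Mog, Mag, Cnp, Cldn11 and Mal were at 0 in all low libraries. Endothelial markers, 3 of 6 with a count, reached 0.000143% in high libraries and were at 0 in low ones. GABA neuron markers (4 of 4 with a count) held 0.000393% to 0.0175% and 0.000110% to 0.00411%, with Gad2 past 2-fold higher and Slc32a1 and Pvalb at 0 in all low libraries, and glutamate neuron markers (3 of 3) 8.93e-05% to 0.0298% and 0% to 0.00877%, with Slc17a8 past 2-fold higher and Slc17a7 at 0 in all low libraries. With only 7 low libraries, a marker counted in few libraries could be at 0 in all low ones. The part of these markers in the differences above was not tested. Without the 8 cells of the series that had 10 or more counts of Pvalb, Tmem119, P2ry12 or Aldh1l1, 6 of them high and 1 low, the medians were 2.14 for nuclear lncRNAs and −1.51 for ribosomal proteins.

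With Malat1 left aside, the 10 largest differences among genes past 2-fold were those of Skint4, Snhg11, Ano6, Rreb1, Xrcc2, Rbm5, Srsf2, A430033K04Rik, Pisd-ps1 and Smg1, from 5.32 to 4.52. Of the 10, all but Snhg11 had a count in at most 5 of 7 low libraries. These therefore passed the filter on expression in the high class alone, which favours such differences. Skint4, of a family known from skin and thymus, had counts in 43 of 44 high libraries, with a median of 68.6 CPM, and 6 counts in 2 of 7 low ones. Rreb1, a zinc finger transcription factor, had 6268 counts in 39 high libraries against 4 counts in 3 low ones, and Ano6, a phospholipid scramblase, 5549 counts in 40 against 5 counts in 3. Smg1, a kinase of nonsense-mediated decay, had 5054 counts in 40 high and 13 in 4 low libraries. Of these 10 genes, 4 shared words with Malat1, Xrcc2 with 62, Snhg11 with 37, Ano6 with 8 and Rbm5 with 2, where 21.7% of all matched genes shared one, and their counts are uncertain. Pisd-ps1 overlaps Sfi1 and is uncertain as well.

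The 10 most negative differences were those of Hddc2, Psap, Rbm43, Rnf10, Ehd4, Fam45a, Eif2b2, Bet1, Mfn2 and Jak1, from −4.12 to −3.78. Most low libraries were 3xTg, and the study lists Ehd4, Bet1, Mfn2 and Jak1 as higher in 3xTg. Before centring on the median gene, the 10 differences ran from −4.64 (Hddc2) to −4.30 (Jak1) with both genotypes. In 3xTg cells alone they ran from −4.63 (Fam45a) to −2.75 (Jak1). The part of genotype was not tested. Each of the 10 genes had a count in at least 6 of 7 low libraries and in at most 34 of 44 high ones. All 10 thus passed the filter on expression in the low class alone. The filter and the naming rule favoured this pattern, so it is no result about these genes. Psap, the precursor of the lysosomal saposins, ran from 0 to 719 CPM (median 90.01) in high and from 82.9 to 888 CPM (median 544) in low libraries. Mfn2, which fuses mitochondria, had a count in 29 of 44 high libraries and in all 7 low ones, with medians of 18.7 and 129 CPM. In summed counts these genes were 2.38-fold to 4.25-fold higher in the low class, less than the differences of the means. Hddc2 alone among the 10 shared words with Malat1, 3 of them.

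Many genes followed Malat1 from library to library, and most of those nearest to it carried the shared B1 words. Over the 68 libraries, the highest Spearman correlations between a gene's log2(normalized count + 1) and the Malat1 share were those of Tmod1 (0.97), Tstd2 (0.96), Gm15910 and B230120H23Rik (0.95), Ecm2 and Xrcc2 (0.94), D130020L05Rik (0.89), Wnt4 (0.88), and Gm17821 and Zfp113 (0.87). The libraries share their depth and preparation, and no gene is an independent replicate. Of these 10 genes 9 could be matched, and 8 of the 9 (88.9%) shared a word with Malat1, where 21.7% of the expressed genes did. Tmod1, which caps actin filaments, shared 60 words and ran from 149 to 1307 CPM (median 374) in high and from 8.88 to 54.1 CPM (median 30.3) in low libraries, and its counts above 0 were not whole numbers in 100% of libraries (tolerance 0.001). Tstd2 overlaps Tmod1 and had the same lowest value in both classes. Of the 23 matched genes whose classes did not overlap, 15 (65.2%) shared a word, and the other 8 were Meg3, Rapgef4, 9330158H04Rik, B4galnt2, Gm9776, Naip5, Zfp488 and A630089N07Rik. These were named after their values had been seen. The part of shared reads in these values was not tested.

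The lowest correlations belonged to Cnnm4 (−0.90), Stmn1 and Gabarapl1 (−0.87), and Hspa8 and Hsp90ab1 (−0.86), none of which shared a word with Malat1. The size factors relative to the totals, by which these values are scaled, themselves had a rho of 0.91 with the Malat1 share, and their part in the correlations was not tested. In CPM, Cnnm4 had medians of 655 and 801 and a log2 ratio of summed counts of −0.21. Hspa8, a chaperone of the cytosol, ran from 974 to 9715 CPM (median 5341) in high and from 5783 to 12809 CPM (median 7510) in low libraries, so the classes overlapped. Gabarapl1, which acts in autophagy, had medians of 914 and 1877 CPM.

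Noncoding genes made up more of the higher than of the lower genes. Of the 251 expressed genes of the type miscRNA in the deposited table, Malat1 left out, 180 were higher (71.7%) and 5 were lower (1.99%), and 99 of the 251 had passed the filter in the high class alone. Protein-coding genes were higher in 1074 of 3900 cases (27.5%) and lower in 242 (6.21%), and pseudogenes in 25 and 2 of 70. Among genes that passed in both classes, 88 of 135 miscRNA genes (65.2%) and 520 of 2314 protein-coding genes (22.5%) were higher. Without genes that shared a word with Malat1 or could not be matched, 106 of 158 miscRNA genes (67.1%) and 679 of 2919 protein-coding genes (23.3%) were higher. The miscRNA genes together held 1.74% to 9.77% of the counts in high libraries (median 3.11%) and 0.99984% to 1.45% in low ones (median 1.37%), again without Malat1, and the ranges did not overlap.

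Among protein-coding genes, those that spanned less than 10 kb of the genome were higher least often. Of 1089 genes under 10 kb, 18.6% were higher, of 1310 from 10 to under 30 kb 28.2%, of 978 from 30 to under 100 kb 33.9%, and of 523 of 100 kb or more 32.5%. The median difference was −0.98, −0.10, 0.42 and 0.60 in the same order. The share of lower genes was between 4.78% and 6.95% in each bin. Without genes that shared a word or could not be matched, the shares of higher genes were 15.4%, 23.8%, 29.4% and 28.1%, and among genes that passed the filter in both classes they were 12.97%, 23.5%, 31.5% and 25.5%.

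**Figure D5:**
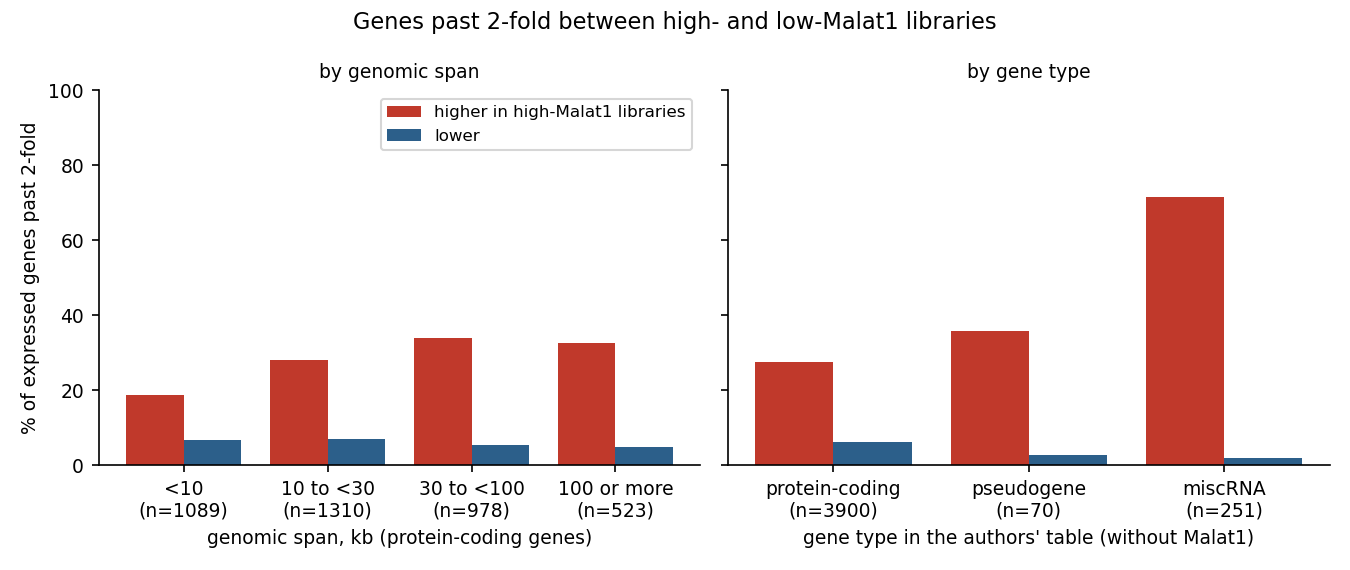
Percentage of expressed genes past 2-fold higher (red) and lower (blue) in high-Malat1 libraries, by genomic span of protein-coding genes in kb (left) and by gene type in the deposited table (right), with the number of genes under each pair of bars. The miscRNA genes stand highest, at 71.7%, and the genes under 10 kb lowest, at 18.6%.

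Higher protein-coding genes also had longer transcripts. For the longest GENCODE transcript of each matched gene, the median length was 4067 bases for the 1024 matched higher genes, 2218.5 for the 230 lower ones and 3195.5 for all 3734. Median 3′ UTR lengths were 2036, 941.5 and 1464 bases, and median GC contents 47.8%, 49.6% and 48.6%. A run of 12 A outside the last 50 bases, an encoded stretch that oligo-dT could meet, was found in 18.7%, 7.39% and 14.01%. Among genes without a shared word these shares were 15.98%, 6.34% and 12.2%, and the median transcript lengths 4023.5, 2193 and 3000.5 bases.

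Since most low-Malat1 libraries were 3xTg, the classes could be compared within 1 genotype in 3xTg cells alone. In 19 high and 6 low 3xTg cells, 1323 genes were higher and 318 lower, and the medians were 2.62 for nuclear lncRNAs, 0.82 for genes with detained introns and −1.22 for ribosomal proteins. Within the run 3xTg 24 to 55, with 11 high and 5 low cells, they were 2.93, 0.71 and −1.07, with 1578 genes higher and 625 lower. In WT the low class was a single cell. Expressed genes were chosen anew in each of these sets of cells, so the counts of genes have other denominators than those above.

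Between genotypes, 3xTg minus WT over all cells, nuclear lncRNAs had a median difference of −0.60 and Malat1 itself of −1.24 relative to the median expressed gene. Within the high class, 19 3xTg against 25 WT cells, the values were −0.11 and −0.66. For Meg3 they were −1.04 over all cells and −0.16 in the high class, for Snhg11 −0.93 and −0.07, for Kcnq1ot1 −0.86 and −0.23, and for Sox2ot −0.73 and −0.41. For Rian they were −0.46 and −0.45, for Peg13 0.70 and 0.42, for Airn −0.35 and 0.10, and for Xist −0.47 and 0.33, so the members did not move alike. By the log2 ratio of summed counts some signs differed. Rian lay at 0.06 and 0.11, Peg13 at −0.18 and −0.84, Airn at −0.66 and −0.35, and Xist at 0.04 and 0.40. Meg3, Snhg11, Kcnq1ot1 and Sox2ot kept their signs. The calculations over all cells and in the high class share cells, and their difference was not tested.

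Csnk2a1, Nucks1, Slc25a14 and Nacc2 are given because the text of the study names them. Csnk2a1, a catalytic subunit of casein kinase 2, ran from 1.76 to 273 CPM (median 55.1) in high and from 14.6 to 141 CPM (median 45.5) in low libraries, a difference of −0.64 and a log2 ratio of summed counts of 0.25, so that the sign depended on the measure. Nucks1, a nuclear substrate of casein kinases, had medians of 82.98 and 212 CPM, a difference of −1.65 and a log2 ratio of summed counts of −0.78. It shared 24 words with Malat1, so its counts are uncertain. Slc25a14, a mitochondrial carrier, had counts in 27 of 44 high and 7 of 7 low libraries, a difference of −2.93 and a log2 ratio of summed counts of −0.39. Nacc2, a transcriptional repressor, had medians of 28.7 and 12.3 CPM, a difference of 0.63 and a log2 ratio of summed counts of 0.91. None was past 2-fold by both measures. Between genotypes, the difference of Csnk2a1 relative to the median gene was 0.85 over all cells and 0.60 in the high class, that of Nucks1 0.89 and 0.23 (with a log2 ratio of summed counts of −0.21 in the high class), that of Slc25a14 1.95 and 1.5, and that of Nacc2 −1.06 and −0.68.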

How the data were processed

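RNA of 68 single VTA dopamine neurons (33 3xTg, 35 WT, grouped by the labels) was analysed. Per the study, reads were trimmed and, with Strand NGS 4.0, placed on RefSeq transcripts of mm10 (identity of 90% or more), and duplicates were removed. The authors deposited estimated counts of 36172 genes, of which 17940 had a count. Of the counts above 0, 55.3% were not whole (tolerance 0.001). The deposited log2 values, for which the authors applied DESeq2 normalization, served as an alternative.

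Size factors came from unrounded counts of 787 genes (median of ratios). Means over cells used a pseudocount of 1, sums and thinning used whole counts, and intervals are exact at 95%. Reads carry no stated molecular identifiers, so intervals and the floor of 3 counts cover counting error only. Cells were not replicates, no difference between classes or genotypes was tested, and an SD or range describes cells. Doublets were not called. Some items are not reported here.

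The classes, the 17 gene lists and the naming rule (list members, 10 genes past 2-fold at each end of the differences whose share of cells with a count went the same way or was equal, and the 10 most and 5 least correlated with Malat1) were chosen with earlier results of these data known. The restriction to genes that passed the filter in both classes, the shared 25-base words with Malat1, the uncentred values, the authors' normalized values and the subsets of cells below 0.01% Malat1, of 3xTg 24 to 55 and of 5000 or more genes were added after seeing the data. Transcripts were those of GENCODE vM21 (GRCm38). Calculations were tested on simulated data. With no gene changed, 6.45% of unchanged genes were past 2-fold there. The simulation had 10911 expressed genes against 4223 in the data, so this is no rate for these data. TMM factors came from edgeR 4.0.16 (R 4.3.3), and all else from Python 3.11.15 with scipy 1.17.1, numpy 2.4.6, matplotlib 3.10.9 and pandas 2.3.3.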

Additional observations from a re-analysis of the deposited data

Results flagged for a closer look

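In 28 measures of the 7 low-Malat1 libraries, 6 had a library far from the other 6 by Dixon's criterion, which flags about 1 in 20 groups by chance. WT cell 20 had the lowest size factor relative to its total, 0.447. 3xTg cell 26 had the lowest share of miscRNA counts without Malat1, 0.99984%, and the highest share of astrocyte markers, 0.0276%. 3xTg cell 36 had the highest share of dopaminergic genes, 4.27%. The share of microglial markers was highest in 3xTg cell 81, at 0.111%, and that of glutamate neuron markers in 3xTg cell 48, at 0.00877%.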

How the results depend on the processing

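No paired analysis was possible because the genotypes share no replicate numbers. Of 1280 higher and 249 lower genes, all genes with a count gave 2373 and 910 (nuclear lncRNA median 0.99), and a minimum of 10 normalized counts 580 higher. A split of all cells at 0.5% gave 73 lower, and one at the median 722 higher and 41 lower. WT cells alone, with 1 low cell, gave 2338 and 1388, the first label-number runs 393 lower, and the second runs, also with 1 low cell, 2652 and 1632 (nuclear lncRNA median 3.88). There Psap and Ehd4 changed sign, to 0.36 and 0.84. Without cells below 0.01% Malat1 428 genes were lower, in 3xTg 24 to 55 alone 625, with 5000 or more genes 413, and without genes sharing a word with Malat1 806 were higher. Of the 2504 genes that passed the filter in both classes, 625 were higher and 58 lower. For each other filter, split and subset of cells the expressed genes were chosen anew, so these counts have different denominators. The cause of these changes was not tested, beyond the smaller numbers of genes or cells compared.

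With each of the 51 cells left out in turn, higher genes ranged from 1273 to 1441 and lower genes from 238 to 332. The medians ranged from 2.19 to 2.82 for nuclear lncRNAs, from 0.86 to 1.28 for detained introns and from −1.47 to −0.80 for ribosomal proteins, the last without 3xTg cell 26. The difference in genes detected ranged from 1694 to 2419.5, and that in the percentage of high cells from −15.95 to −12.05 points. Of the values of this kind under the other alternatives, 19 moved, all given above, and 108 did not by the limits used, which for list medians were 1 SD over the cells of a class and therefore wide. Within those limits the ribosomal protein median still went from −1.36 to −0.25 in the second runs, −0.41 with summed counts, −0.43 with the minimum of 10 normalized counts, −0.53 in WT alone and −0.79 with 5000 or more genes. The detained intron median ranged from 0.33 (genes that passed in both classes) to 1.94 (WT alone), and the nuclear lncRNA median was 1.41 with a pseudocount of 10 and 3.53 in WT alone. Of the values of single genes 349 did not move, 29 moved and 2 changed sign. The low class of 7 cells limits every value. Of all calls, 83.7% were higher, and 79.4% without centring.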
